A study of Saccharomyces cerevisiae BY4741 with 9 samples.

Results

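This account follows 9 genes of nuclear RNA surveillance in budding yeast that carries scc2-4, a mutant allele of the cohesin loader gene SCC2, set against wild type (WT). They are AIR1, AIR2, PAP2, TRF5 and MTR4, which encode the subunits of the TRAMP complexes, and RRP6, LRP1, MPP6 and DIS3, which encode the catalytic subunits and nuclear cofactors of the RNA exosome. The 9 were taken by identifier from the 7130 features of the deposited expression table. They belong together by function, but the set was chosen on measured values of this same comparison, in which AIR1 had been seen to be far higher in the mutant. Levels and changes of the 9 are therefore given as a description. The fit across all features also covers them, and its calls of members are counted once but support nothing.

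The scc2-4 and WT cells were of the BY4741 background and were harvested in exponential growth in YPD+CSM, a rich medium with added amino acids. Growth temperature is not given in the sources used here. RNA was sequenced after removal of ribosomal RNA, with 3 scc2-4 and 3 WT libraries, which the series' design calls biological replicates without naming separate cultures, so p-values measure the spread between these libraries. The names of the WT columns do not state the preparation, and they were taken as the ribo-depleted WT libraries because the mutant was prepared only in that way. The 3 libraries of undepleted WT RNA were not analysed here.

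Many short non-coding transcripts of RNA polymerase II, and faulty or immature ribosomal, transfer and small nucleolar RNAs, are trimmed or destroyed from the 3′ end by the exosome. TRAMP marks such RNAs with a short poly(A) tail and unwinds them. A poly(A) polymerase, encoded by PAP2 (also called TRF4) or TRF5, joins a zinc-knuckle RNA-binding protein, encoded by AIR1 or AIR2, and the RNA helicase Mtr4. The yeast complexes are described as Pap2 with Air1 or Air2, and Trf5 mainly with Air1. The Trf5 form is known mostly from ribosomal RNA precursors in the nucleolus.

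AIR1, whose product joins Pap2 or Trf5, and TRF5 were far higher in scc2-4 than in WT. Their paralogues, AIR2 and PAP2, were at nearly the same level in both genotypes. The promoters of these 4 genes are printed here because AIR1 and TRF5 also differ from AIR2 and PAP2 in a short motif. Each line holds the 250 bases before the start codon and the first 50 coding bases, read from the RefSeq R64 genome (the sacCer3 build), 5′ to 3′ on the gene's own strand. Capitals mark the PAC core, GATGAG on either strand, an element found before many ribosome biogenesis genes. The windows are chrIX:211956-212255 (minus strand) for AIR1, chrXIV:66267-66566 (plus strand) for TRF5, chrIV:145469-145768 (minus strand) for AIR2 and chrXV:101225-101524 (plus strand) for PAP2. No other feature of the table lies within any of these windows.
AIR1: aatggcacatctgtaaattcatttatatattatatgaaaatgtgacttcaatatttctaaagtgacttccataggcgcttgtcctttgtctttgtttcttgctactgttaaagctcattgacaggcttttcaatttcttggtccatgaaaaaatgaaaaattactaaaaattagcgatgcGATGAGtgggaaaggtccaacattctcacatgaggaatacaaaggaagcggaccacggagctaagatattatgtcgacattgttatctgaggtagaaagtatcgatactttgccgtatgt
TRF5: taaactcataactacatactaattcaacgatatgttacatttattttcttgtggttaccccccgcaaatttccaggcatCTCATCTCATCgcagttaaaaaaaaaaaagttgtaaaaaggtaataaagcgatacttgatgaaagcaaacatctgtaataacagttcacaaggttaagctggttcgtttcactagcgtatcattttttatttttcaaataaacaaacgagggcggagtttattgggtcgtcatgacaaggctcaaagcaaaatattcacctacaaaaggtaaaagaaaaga
AIR2: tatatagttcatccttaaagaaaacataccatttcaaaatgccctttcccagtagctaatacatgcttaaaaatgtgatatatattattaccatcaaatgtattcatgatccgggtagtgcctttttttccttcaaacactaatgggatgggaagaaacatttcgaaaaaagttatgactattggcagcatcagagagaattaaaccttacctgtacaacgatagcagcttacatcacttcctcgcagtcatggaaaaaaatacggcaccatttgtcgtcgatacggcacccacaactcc
PAP2: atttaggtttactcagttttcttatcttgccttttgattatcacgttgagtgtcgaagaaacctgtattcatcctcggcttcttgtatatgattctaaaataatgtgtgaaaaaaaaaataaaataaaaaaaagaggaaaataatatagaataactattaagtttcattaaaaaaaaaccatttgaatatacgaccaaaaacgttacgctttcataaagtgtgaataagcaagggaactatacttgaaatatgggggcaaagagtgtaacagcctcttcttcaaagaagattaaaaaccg

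The PAC core stood 70 bases before the start codon of AIR1, on the coding strand. TRF5 held it in 2 overlapping copies on the other strand, which begin 171 and 166 bases before the start codon. The windows of AIR2 and PAP2 held no match. Among the other members, MTR4, LRP1, MPP6 and DIS3 held a PAC core and RRP6 did not, so that 6 of the 9 members had one, against 20.4% of 5980 promoters of the same length. The letters AAAATTTT, the core of a second element of ribosome biogenesis promoters called RRPE, which reads the same on both strands, were present for RRP6, MPP6 and DIS3, against 9.03% of all promoters. Among all protein-coding genes tested, 29.6% of the 1141 with a PAC core were called higher in scc2-4 (adjusted p below 0.05 in limma), against 14.8% of the 4581 without one. Without WT replicate 2 these shares were 20.5% and 8.7%, and leaving out scc2-4 replicate 1, 2 or 3 gave 12.4%, 9.0% or 8.5% with a PAC core and 6.7%, 4.7% or 5.1% without one. With all libraries, 33.5% of the 534 genes with an RRPE core were called higher, and 46.9% of the 262 with both cores. The 534 include the 262, so the 33.5% is not a share for the RRPE core alone. With neither core the share was 14.5%. AIR1 and TRF5 held no RRPE core. A match of letters is not a shown binding site.

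Values are RPKM, read numbers scaled to feature length and to the reads assigned in each library, so levels of different genes can be set side by side per length. They are shares of the RNA in a whole culture: a change in the mix of cells and a change per cell cannot be told apart. Each library held 14730000 to 21930000 assigned reads. WT replicate 1 stood apart, with correlations across features of 0.977 and 0.968 with the other WT libraries, against 0.993 between those 2 and 0.990 to 0.993 among the mutant libraries, so values are also given without it. All 9 members passed the filter of a mean of at least 1 RPKM, and each stood above 1 RPKM in every library.

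AIR1 (YIL079C, chromosome IX, 210923 to 212005, minus strand) stood at 50.43, 57.16 and 58.81 RPKM in scc2-4 replicates 1 to 3, against 3.32, 8.41 and 10.72 RPKM in WT replicates 1 to 3. The lowest mutant library lay far above the highest WT library. The reads behind these values were 999, 1356 and 950 in the mutant and 53, 159 and 205 in WT, so counting error is small beside the spread between libraries. The mean was 55.5 ± 4.44 RPKM in scc2-4 and 7.48 ± 3.79 RPKM in WT (SD, n = 3 each). On the log2(RPKM + 1) scale, on which fold changes of low genes are understated, the change was 2.86 ± 0.37 (SE), or 7.27-fold. It ranked 1 among 6559 features tested. Without WT replicate 1 it was 5.25-fold.

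AIR2 (YDL175C, chromosome IV, 144484 to 145518, minus strand), the other RNA-binding subunit gene, had 13.68, 12.97 and 14.51 RPKM in scc2-4 and 12.87, 14.17 and 14.01 RPKM in WT. The ranges overlapped, and the means were 13.7 ± 0.771 RPKM in scc2-4 and 13.7 ± 0.709 RPKM in WT. Its log2 change was 0.01 ± 0.11 (SE). AIR1 thus made up 78.7%, 81.5% and 80.2% of the summed AIR1 and AIR2 RPKM in the mutant libraries, against 20.5%, 37.2% and 43.3% in the WT libraries. The share lies within a library and does not depend on scaling between libraries. The 2 genes are 69.0% identical over their aligned bases, and their longest identical stretch is 18 bases. The sum of the pair was 69.2 ± 4.67 RPKM in scc2-4 and 21.2 ± 4.43 RPKM in WT.

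TRF5 (YNL299W, chromosome XIV, 66517 to 68445, plus strand), a poly(A) polymerase gene, had 15.64, 13.89 and 14.52 RPKM in scc2-4, against 1.83, 4.51 and 5.08 RPKM in WT. All mutant libraries lay above all WT libraries, and the WT values rested on only 52, 152 and 173 reads. The means were 14.7 ± 0.886 RPKM in scc2-4 and 3.81 ± 1.74 RPKM in WT, a log2 change of 1.79 ± 0.31 (SE), or 3.46-fold, and 2.65-fold without WT replicate 1. With a pseudocount of 5 in place of 1 the log2 change was 1.19. It ranked 21 from the highest among the features tested. TRF5 does not lie on chromosome IX.

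PAP2 (YOL115W, chromosome XV, 101475 to 103229, plus strand), the paralogous polymerase gene, had 22.17, 22.86 and 23.1 RPKM in scc2-4 and 17.72, 25.28 and 24.65 RPKM in WT. The mutant values fell inside the WT range, and the log2 change was 0.04 ± 0.17 (SE), or -0.16 without WT replicate 1. TRF5 accounted for 41.4%, 37.8% and 38.6% of the summed TRF5 and PAP2 RPKM in the mutant libraries, against 9.36%, 15.1% and 17.1% in the WT libraries. PAP2 was therefore the more abundant polymerase transcript per length in every library of both genotypes, whereas the RNA-binding pair changed order, with AIR1 above AIR2 in every mutant library and below it in every WT library. The longest stretch shared by TRF5 and PAP2 is 20 bases, with 69.3% identity over aligned bases. The sum of the polymerase pair was 37.4 ± 0.529 RPKM in scc2-4 and 26.3 ± 5.92 RPKM in WT.

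**Figure D1:**
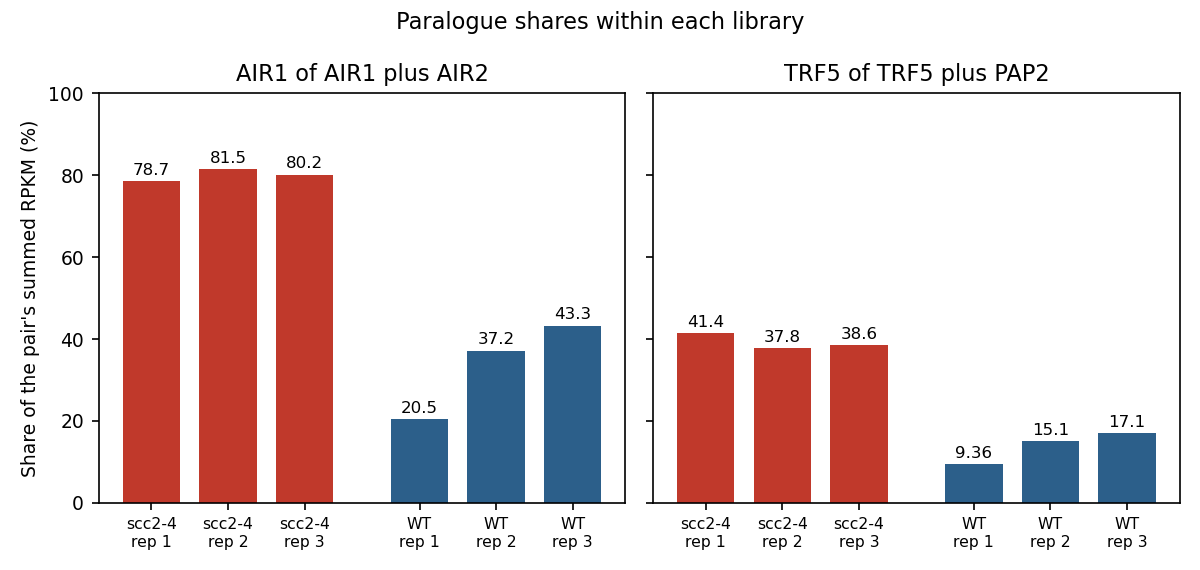
Share of each paralogue pair's summed RPKM held by AIR1 (left) and by TRF5 (right), in percent, in each of the 3 scc2-4 libraries (red) and 3 WT libraries (blue). AIR1 holds 78.7% to 81.5% in the mutant and 20.5% to 43.3% in WT, and TRF5 holds 37.8% to 41.4% in the mutant and 9.36% to 17.1% in WT.

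MTR4 (YJL050W, chromosome X, 342522 to 345743, plus strand), the helicase gene shared by all forms of TRAMP, had the highest level of the 9 in both genotypes. It stood at 91.81, 100.91 and 106.61 RPKM in scc2-4, against 41.33, 74.26 and 79.85 RPKM in WT. The groups did not overlap, but the gap between the highest WT and lowest mutant library was smaller than the gap between WT replicates 1 and 2. The log2 change was 0.67 ± 0.27 (SE), or 1.59-fold, and 1.26-fold without WT replicate 1.

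RRP6 (YOR001W, chromosome XV, 326832 to 329033, plus strand) encodes the 3′ to 5′ exonuclease found only on the nuclear exosome. It had 54.33, 56.73 and 58.95 RPKM in scc2-4 and 29.45, 43.26 and 46.38 RPKM in WT. DIS3 (YOL021C, chromosome XV, 282421 to 285426, minus strand), which encodes the exosome's exonuclease and endonuclease subunit, had 59.84, 61.92 and 65.89 RPKM in scc2-4 and 31.67, 50.23 and 52.12 RPKM in WT. Both were higher in every mutant library than in any WT library, and both had their lowest value in WT replicate 1. The log2 changes were 0.54 ± 0.20 for RRP6 and 0.52 ± 0.22 for DIS3 (SE), or 1.45-fold and 1.43-fold. Without WT replicate 1 they were 1.23-fold and 1.19-fold.

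LRP1 (YHR081W, chromosome VIII, 267538 to 268092, plus strand) encodes the protein that binds and stabilises Rrp6. It had 31.45, 28.73 and 22.61 RPKM in scc2-4 and 22.42, 18.59 and 20.02 RPKM in WT, so scc2-4 replicate 3 lay just above the highest WT library. MPP6 (YNR024W, chromosome XIV, 672409 to 672969, plus strand), whose product helps to join Mtr4 to the nuclear exosome, had 16.78, 17.59 and 16.86 RPKM in scc2-4 and 12.73, 11.34 and 12.02 RPKM in WT. These 2 cofactor genes differed from RRP6 and DIS3 in that WT replicate 1 was not low for them. Their log2 changes were 0.42 ± 0.12 for LRP1 and 0.48 ± 0.085 for MPP6 (SE), or 1.34-fold and 1.40-fold, and 1.37-fold and 1.40-fold without WT replicate 1. MPP6 overlaps YNR025C over 268 bases, and whether reads were counted by strand is not known, so its reads cannot be assigned to it alone.

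**Figure D2:**
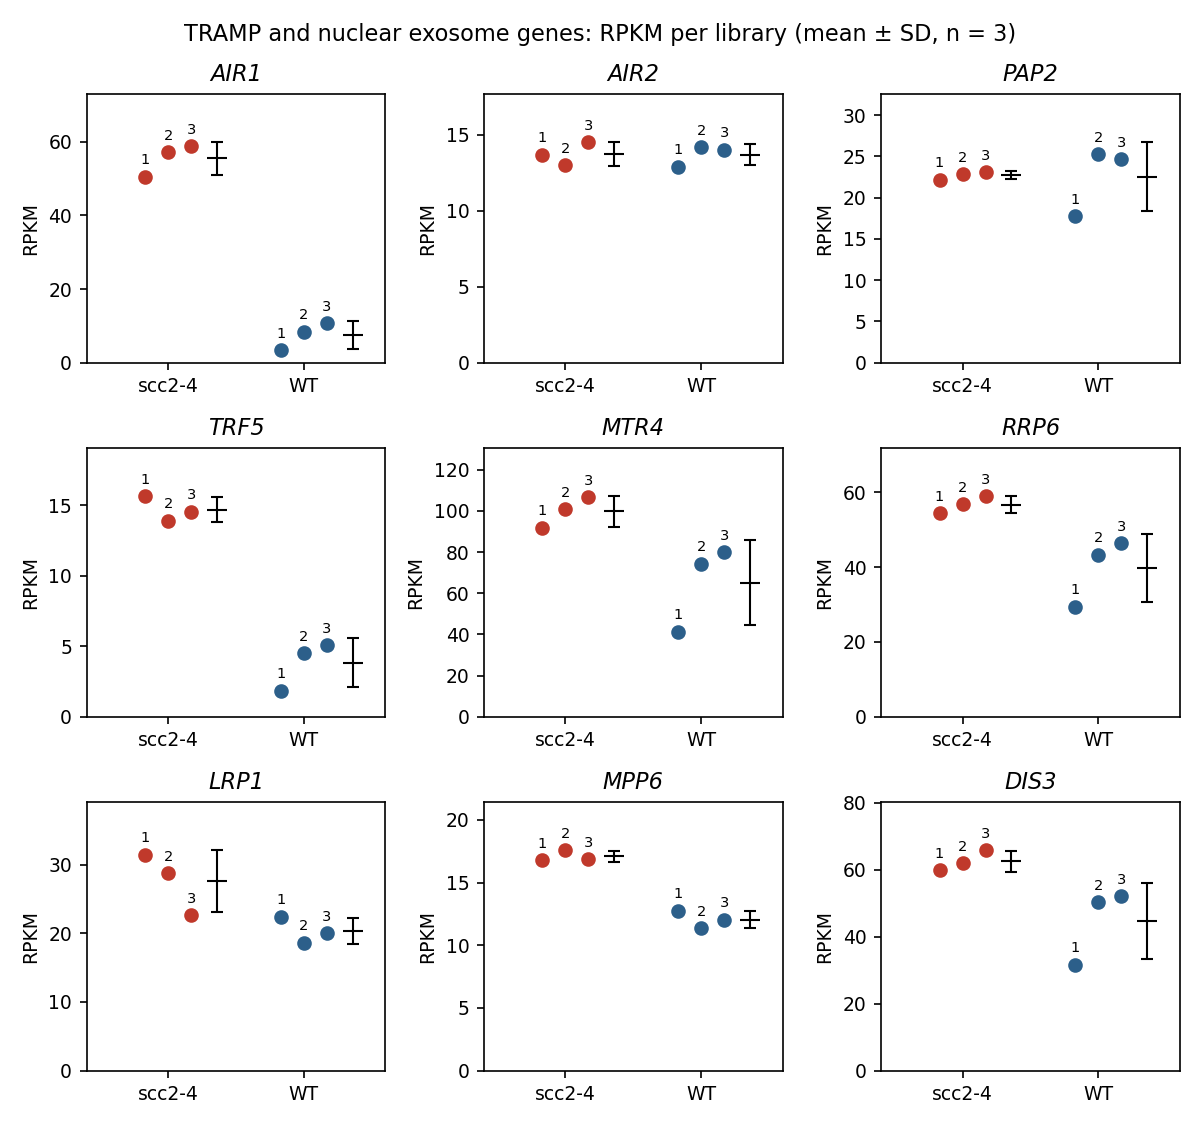
RPKM of the 9 genes in each library, 1 panel per gene, with scc2-4 libraries in red, WT libraries in blue and replicate numbers above the points; black bars beside the points are mean ± SD (n = 3). AIR1 and TRF5 show the widest gaps between genotypes in fold, and AIR2 and PAP2 overlap.

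In order of level per length, the mutant ran from MTR4 through DIS3, RRP6, AIR1, LRP1, PAP2, MPP6 and TRF5 to AIR2. Neighbours whose values overlapped there were RRP6 with AIR1, LRP1 with PAP2, and TRF5 with AIR2. The WT order was MTR4, DIS3, RRP6, PAP2, LRP1, AIR2, MPP6, AIR1 and TRF5, with overlap between MTR4 and DIS3, DIS3 and RRP6, PAP2 and LRP1, and AIR1 and TRF5. AIR1 stood at rank 4 of 9 in scc2-4 and at rank 8 of 9 in WT, with a mutant level like that of the exonuclease gene RRP6.

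Genotypes were compared across all features with limma's moderated test and Benjamini-Hochberg adjustment, and a feature was called at an adjusted p below 0.05. By that rule AIR1, TRF5, LRP1 and MPP6 were called higher, 4 of the 9 members, beside 17.5% of all features called higher. None of the 9 was called lower, and none had an unadjusted p under 0.05 with a negative change, beside 15% of all features called lower. The 6 values of 7 members did not overlap between genotypes, with scc2-4 higher, as for 31% of all features. Nothing is read from these shares, or from the call of any one member, because the members were picked with this comparison in view. MTR4 and RRP6 were also called without WT replicate 1, which made 6 members in all. In that fit 1360 features were called higher, against 1149 with all libraries. LRP1 was not called without centring, without WT replicate 2 or 3, or without scc2-4 replicate 1 or 2. The median log2 change was 0.52 over the members and 0.05 over all features.

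WT replicate 1 was the lowest WT library for AIR1, AIR2, PAP2, TRF5, MTR4, RRP6 and DIS3. Relative to each gene's WT mean it stood at -0.94 for AIR1, -0.77 for TRF5 and -0.67 for MTR4 on the centred log2 scale. For AIR2, LRP1 and MPP6 it stood at -0.16, 0.05 and -0.01. The median of the members was 0.45, 0.53 and 0.62 in scc2-4 replicates 1 to 3, and -0.48, 0.21 and 0.30 in WT replicates 1 to 3. The part of that library in the differences was measured by leaving it out: the median change of the members was then 0.34.

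**Figure D3:**
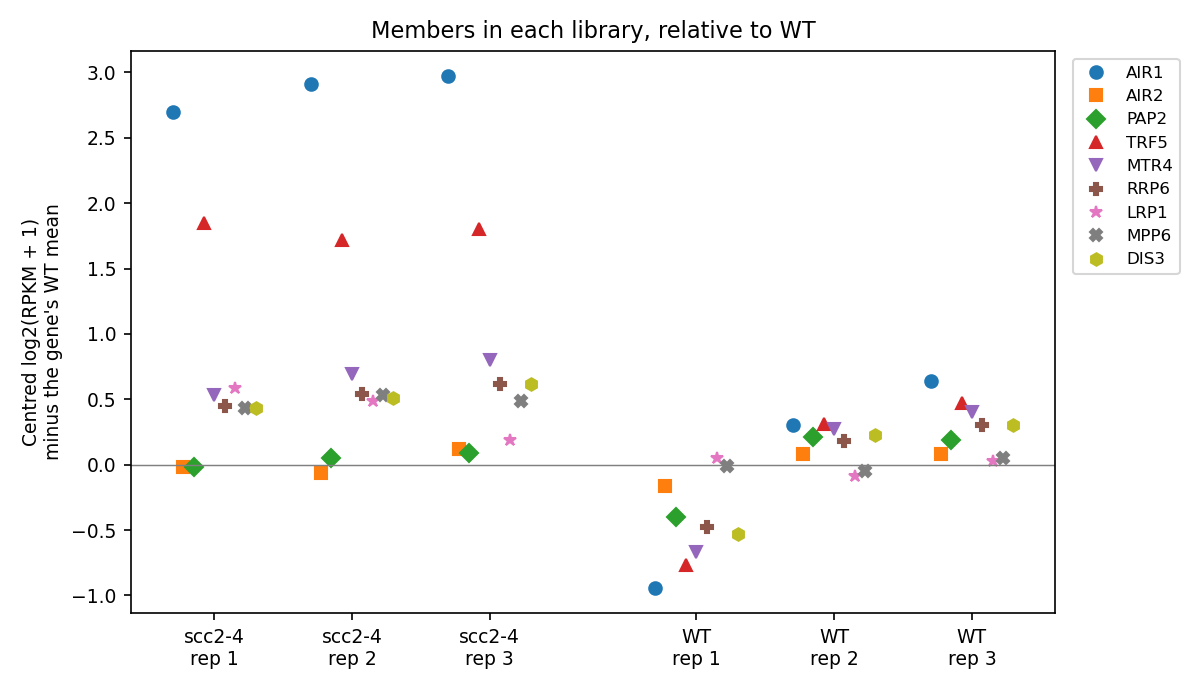
Centred log2(RPKM + 1) of each of the 9 genes minus its WT mean, for the 3 scc2-4 libraries and the 3 WT libraries, 1 symbol per gene. AIR1 stands at 2.70 to 2.97 and TRF5 at 1.72 to 1.85 in the mutant, and in WT replicate 1 AIR1 is lowest at -0.94.

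AIR1 lies on chromosome IX, whose features were higher as a whole in the mutant. The median log2 change of the other features tested there was 0.80, or 1.75-fold, against 0.03 on the other nuclear chromosomes. AIR1 ranked 1 among the 244 features of its chromosome and exceeded the median of the others by 2.06 on the log2 scale, or 4.16-fold. The next highest feature stood at 2.43. On the side of higher coordinates, THS1, the cytosolic threonyl-tRNA synthetase gene, had a mean of 855 ± 79.6 RPKM in scc2-4 and 447 ± 71.9 RPKM in WT (1.94-fold, adjusted p = 0.0110, limma). YIL077C stood at 49.4 ± 2.07 RPKM in scc2-4 and 55.8 ± 16.4 RPKM in WT (adjusted p = 0.571, limma). SEC28, a coatomer subunit gene, stood at 308 ± 8.28 RPKM in scc2-4 and 192 ± 7.39 RPKM in WT (adjusted p = 0.0046, limma). The 3 features on the other side, YIL082W, YIL082W-A and YIL080W, start at the same base, 205635, and overlap each other. Their log2 changes were -0.22, -0.12 and -0.11, but they share reads, so they count as 1 locus and not as 3 separate genes. AIR1 ranked 1 among all features tested, so its lead over these 6 neighbouring features and over its chromosome was fixed beforehand. Nothing is read from that lead. The other 8 members lie on other chromosomes, and their median log2 change was 0.50.

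**Figure D4:**
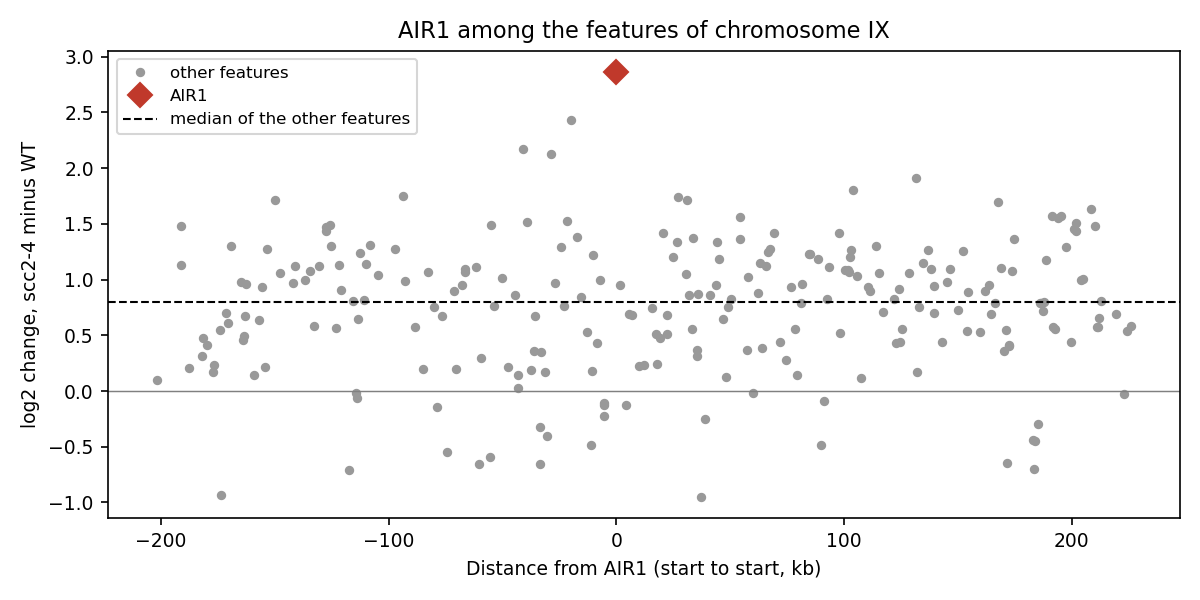
Change in log2(RPKM + 1) between scc2-4 and WT for the 244 features of chromosome IX, against their distance from AIR1 in kb. AIR1 (red) stands at 2.86, above all others, and the dashed line marks the median of the other features, 0.80.

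The features most like AIR1 over the 6 libraries, by the Euclidean distance between profiles set to their WT means, were YGR079W (0.55), UTP25 (0.76), RRN11 (0.79), SHQ1 (1.21) and SLM6 (1.29), in log2 units. YGR079W had 24.81, 28.05 and 29.03 RPKM in scc2-4 and 1.83, 4.73 and 6.06 RPKM in WT. RRN11, a core factor gene of RNA polymerase I, had 18.33, 18.78 and 17.24 RPKM in scc2-4 and 1.25, 2.82 and 4.09 RPKM in WT. For both, as for AIR1, WT replicate 1 was the lowest library and the mutant libraries lay close together. That likeness follows from their choice by distance over these same 6 libraries. UTP25 and SHQ1 are on chromosome IX, and SLM6 overlaps YBR267W over 453 bases. TRF5 ranked 15 in likeness to AIR1, at a distance of 1.89, and MTR4 ranked 556, at 3.81.

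The remaining subunits of the exosome, 9 genes chosen by function, form the barrel and RNA-binding cap that thread RNA towards Dis3. This list and the later gene lists were chosen with earlier results of these data known. In scc2-4, 5 of the 9 rose, none fell and 4 did not pass, with a median log2 change of 0.42, beside 0.05 over all features. Of all features, 17.5% were called higher and 15% lower, the background for the counts of this and the later lists. None had an unadjusted p under 0.05 with a negative change. All 3 cap genes rose. RRP4 stood at 51.4 ± 4.23 RPKM in scc2-4 and 28.5 ± 8.81 RPKM in WT (log2 change 0.88 ± 0.26 SE, adjusted p = 0.0373, limma). CSL4 stood at 71.9 ± 0.987 RPKM in scc2-4 and 46.2 ± 6.79 RPKM in WT (0.65 ± 0.15, adjusted p = 0.0197). RRP40 had 58.5 ± 0.878 RPKM in scc2-4 and 42.0 ± 4.99 RPKM in WT (0.49 ± 0.13, adjusted p = 0.0266). Of the barrel genes, MTR3 rose to 29.7 ± 1.80 RPKM, against 16.3 ± 4.77 RPKM in WT (0.88 ± 0.24, adjusted p = 0.0316). RRP46 stood at 36.6 ± 0.797 RPKM in scc2-4 and 27.4 ± 2.73 RPKM in WT (0.42 ± 0.12, adjusted p = 0.0363). RRP42, RRP43, RRP45 and SKI6, the other barrel genes, had log2 changes of 0.29, 0.30, 0.23 and 0.14. RRP4 was not called without WT replicate 2. Without any 1 scc2-4 library 0 of the 9 passed, with 5 at an unadjusted p under 0.05 each time, and the adjusted p of the 5 genes ranged from 0.00286 to 0.124 over the alternatives. Leaving out WT replicate 1 brought the list's median to 0.30, with 0.58 for MTR3 and 0.57 for RRP4.

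Proteins that bring RNA or the exosome to Mtr4, or end transcription of short RNAs, made a list of 7. Of these, 3 rose, none fell and 4 did not pass. UTP18, a small-subunit processome gene whose product binds Mtr4, rose 2.76-fold, with 39.8 ± 1.70 RPKM in scc2-4 and 15.4 ± 7.68 RPKM in WT (adjusted p = 0.0324, limma). NOP53, which encodes the Mtr4 adaptor of large-subunit precursors, rose 1.67-fold to 57.3 ± 4.46 RPKM, against 34.7 ± 7.91 RPKM in WT (adjusted p = 0.0296). NRD1, an RNA-binding termination factor gene, had 9.42 ± 0.826 RPKM in scc2-4 and 6.95 ± 0.355 RPKM in WT (1.32-fold, adjusted p = 0.0353). SEN1, the helicase gene of the same termination complex, and NAB3, an RNA-binding subunit gene of it, had log2 changes of 0.47 and 0.02. The nuclear cap-binding genes STO1 and CBC2 had 0.07 and -0.23, and CBC2 had the list's 1 unadjusted p under 0.05 with a negative change. Without WT replicate 2 only 1 of the list passed, UTP18, and without any 1 scc2-4 library 0 passed, with 3 or 4 at an unadjusted p under 0.05. The adjusted p ran from 0.000468 to 0.0997 for UTP18, from 0.00596 to 0.0917 for NOP53 and from 0.0307 to 0.110 for NRD1 over the alternatives. UTP18 was at 0.94 on the log2 scale without WT replicate 1, against 1.47 with it.

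Other exonucleases gave 3 of 7 genes that rose and none that fell. REX3, an RNA exonuclease gene, had 29.43, 26.45 and 28.52 RPKM in scc2-4 and 16.77, 16.26 and 16.03 RPKM in WT (1.69-fold, adjusted p = 0.00260, limma). Its WT libraries lay close together, and the call held in all 14 fits. REX4 rose 2.95-fold to 36.5 ± 5.39 RPKM, against 12.8 ± 6.13 RPKM in WT (adjusted p = 0.0237), and overlaps YOL079W over 371 bases. RAT1, the nuclear 5′ exonuclease gene, rose 1.40-fold to 54.2 ± 1.34 RPKM, against 38.8 ± 5.18 RPKM in WT (adjusted p = 0.0368). RAI1, XRN1, RNH70 and REX2 had log2 changes of 0.16, 0.05, 0.09 and 0.11. Without any 1 scc2-4 library only REX3 remained called, RAT1 was not called without WT replicate 2, and the adjusted p ran from 0.00147 to 0.0860 for REX4 and from 0.0128 to 0.117 for RAT1 over the alternatives.

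The Ski complex and Ski7, which serve the cytoplasmic exosome, had no gene called in limma in either direction, and 1 of the 4, SKI2, had an unadjusted p under 0.05. SKI2 had 34.1 ± 0.659 RPKM in scc2-4 and 28.9 ± 1.24 RPKM in WT. The log2 changes of SKI2, SKI7, SKI3 and SKI8 were 0.24, 0.15, 0.08 and 0.05. Whether these changes differed from those of the nuclear genes was not tested.

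Among 5 genes of polyadenylation and of the tRNA methyltransferase whose loss exposes initiator tRNA to TRAMP, both methyltransferase genes rose. GCD14 had 30.4 ± 2.86 RPKM in scc2-4 and 15.1 ± 3.03 RPKM in WT (1.99-fold, adjusted p = 0.0107, limma). GCD10 had 61.2 ± 2.29 RPKM in scc2-4 and 35.0 ± 6.86 RPKM in WT (1.76-fold, adjusted p = 0.0162). GCD14 was called in all 14 fits, and GCD10 in 11, the exceptions being those without 1 scc2-4 library, with adjusted p from 0.00135 to 0.0600. PAP1, the canonical poly(A) polymerase gene, PAB1 and NAB2, both genes of poly(A)-binding proteins, did not pass, at 0.05, 0.30 and -0.07 on the log2 scale. The canonical polymerase thus stood at 28.8 ± 2.37 RPKM in scc2-4 and 28.0 ± 1.89 RPKM in WT.

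**Figure D5:**
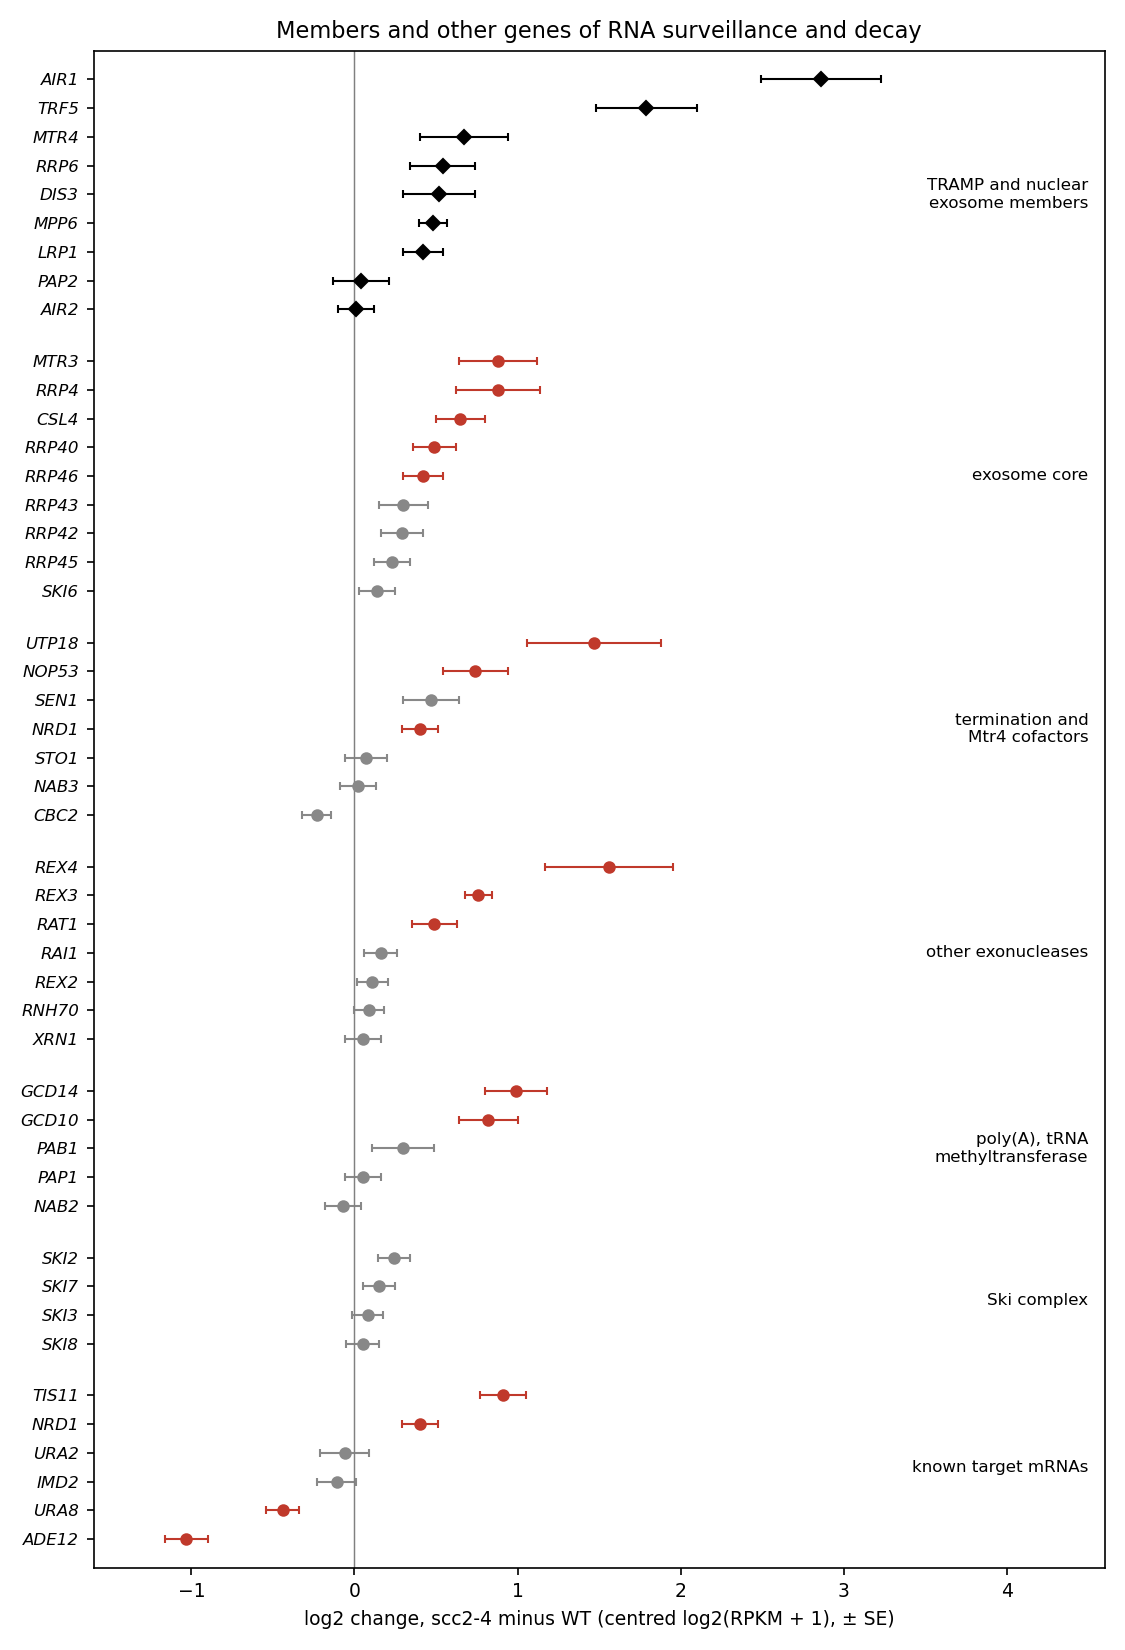
Log2 change between scc2-4 and WT (± SE) of the 9 members (black diamonds, no test) and of the other genes of each list (circles, red where adjusted p was below 0.05 in limma, grey otherwise). AIR1 at 2.86 and TRF5 at 1.79 stand highest, and ADE12 at -1.03 stands lowest.

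For RNAs that the pathway is known to act on, levels went both ways. Of 6 mRNAs whose amount is known to depend on Nrd1-guided termination, TRAMP or the nuclear exosome, 2 rose, 2 fell and 2 did not pass, with a median log2 change of -0.09. TIS11 (also called CTH2), whose mRNA is matured through this pathway, had 63.0 ± 6.18 RPKM in scc2-4 and 33.4 ± 5.21 RPKM in WT (1.88-fold, adjusted p = 0.00575, limma), and NRD1 rose as given above. ADE12, a purine synthesis gene, fell 2.04-fold to 180 ± 9.56 RPKM, against 374 ± 68.6 RPKM in WT (adjusted p = 0.00326). URA8, a CTP synthase gene, fell 1.36-fold to 75.9 ± 1.31 RPKM, against 105 ± 15.6 RPKM in WT (adjusted p = 0.0191). IMD2 and URA2 had log2 changes of -0.11 and -0.06. TIS11 and ADE12 were called in all 14 fits, and the adjusted p ran from 0.00712 to 0.0736 for URA8, which was not called without any 1 scc2-4 library.

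Small nucleolar RNAs, whose 3′ ends the nuclear exosome trims, showed 9 of 75 tested higher, 8 lower and 58 not passing, with a median log2 change of -0.18. Of all features, 17.5% were called higher and 15% lower, with a median of 0.05. These shares are also the background for the transfer RNA genes below. In this fit, with centring and all libraries, neither class was called more often than features at large. SNR48 rose 2.16-fold, with 45.3 ± 1.46 RPKM in scc2-4 and 20.7 ± 1.71 RPKM in WT (adjusted p = 0.00150, limma). SNR69 rose 2.25-fold, with 21.4 ± 1.04 RPKM in scc2-4 and 9.05 ± 0.985 RPKM in WT (adjusted p = 0.00168). SNR59 and SNR191 lie within YPL198W and YNR053C, so their reads cannot be told from those of the host gene: SNR59 had 22.7, 31.39 and 39.14 RPKM in scc2-4 and 12.34, 7.43 and 13.23 RPKM in WT, and SNR191 had 2780 ± 173 RPKM in scc2-4 and 4410 ± 216 RPKM in WT. SNR80 fell 2.57-fold to 290 ± 56.4 RPKM, against 787 ± 331 RPKM in WT (adjusted p = 0.0167). SNR190, far more abundant, fell 1.59-fold to 21500 ± 1830 RPKM, against 34400 ± 3770 RPKM in WT (adjusted p = 0.0132). SNR190 was not called without scc2-4 replicate 2 (adjusted p = 0.0615 in limma), nor SNR80 without scc2-4 replicate 1 or 3 (adjusted p = 0.0554 and 0.067), with a range over the alternatives from 0.00991 to 0.0615 for SNR190 and from 0.00458 to 0.067 for SNR80. The count of lower ones was 13 without centring of the libraries and also without WT replicate 1, and 4 without WT replicate 2. Features of all kinds called lower numbered 836, 1082 and 681 in these fits. Leaving out scc2-4 replicate 1, 2 or 3 left 2, 1 or 3 small nucleolar RNAs lower and 4, 4 or 3 higher. Only 109 of 299 transfer RNA genes passed the filter, of which 8 were higher and 5 lower. These include 15 mitochondrial ones, which the nuclear exosome does not meet, with 2 higher and 1 lower. Of the 94 nuclear ones 6 were higher and 4 lower. Over both kinds, without WT replicate 1 there were 13 higher, and leaving out scc2-4 replicate 1, 2 or 3 left 5, 5 or 3 higher. With a mean of at least 5 RPKM required these counts were 1 and 0 of 23, with 1 higher and 2 lower at an unadjusted p under 0.05, so the transfer RNA counts depend on that filter. Levels were also low. The nuclear gene tR(ACG)L, called higher, had 3.79, 1.9 and 3.72 RPKM in scc2-4 and 0.0, 0.79 and 0.0 RPKM in WT. Over so short a feature such values are very few reads, so calls of single transfer RNA genes are weak.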

How the data were processed

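RNA of 3 scc2-4 and 3 WT libraries was sequenced after ribosomal RNA removal, and the authors deposited RPKM values for 7130 features. Bowtie and the sacCer3 build are named in the submitters' processing notes; the sources used here name no counting tool and no strand setting. The depth of each library was set where low RPKM, multiplied by feature length, came closest to whole reads. It was 14730000 to 21930000 reads per library. At that depth all low values checked, of at most 100 reads in short features, were whole within 0.1. The names of the WT columns give no preparation, and they were taken as ribo-depleted WT because scc2-4 was prepared only so; 3 WT total RNA libraries were not analysed here. Values were taken as log2(RPKM + 1), centred on each library's median and tested with limma 3.58.1 in R 4.3.3 over 6559 features with a mean of at least 1 RPKM, scc2-4 minus WT, with Benjamini-Hochberg adjustment and a threshold of 0.05. The code was tested on simulated data. The members and the gene lists were chosen with earlier results of these data known. All members are named. So are the genes of the other lists, up to 3 small nucleolar RNAs with the smallest p in each direction and 1 transfer RNA gene. The 3 features nearest to AIR1 on either side and the 5 with the profile most like it are also named. Levels per sample rest on reads counted without molecular identifiers. Sequences and positions come from the RefSeq R64 assembly and the deposited coordinates, of which 99.1% of the 6048 shared features were identical. Protein sequences were not used here, so paralogues were compared by the bases of their genes.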

Additional observations from a re-analysis of the deposited data

How the results depend on the processing

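Counts of calls, log2 changes of members and of other named list genes, and the named small nucleolar RNAs were recomputed with pseudocounts of 0.1 and 5, without the filter and with a mean of at least 5 RPKM, without centring and with centring outside chromosome IX, with the replicate number as a block, and without each library in turn. The features beside AIR1, the chromosome IX median and the PAC shares were recomputed in the same way, a step chosen after seeing the data. Profile distances, level orders and the RRPE shares were not recomputed. None of the recomputed called results changed direction. AIR1 exceeded the chromosome IX median by 1.57 to 2.38 on the log2 scale, and THS1 and SEC28 were called each time. Leaving out 1 library gave 373 to 1360 features called higher and 386 to 1123 called lower, against 1149 and 984 with all libraries. The ranges for genes called higher were 3 to 6 for the members, 0 to 5 for the exosome core, 0 to 3 for the termination and Mtr4 cofactors, 1 to 3 for the other exonucleases, 1 to 2 for the polyadenylation and tRNA methyltransferase genes, 1 to 2 for the target mRNAs, 3 to 9 for small nucleolar RNAs and 3 to 13 for transfer RNA genes. For genes called lower they were 0 to 1 for the cofactors, 1 to 2 for the target mRNAs, 1 to 13 for small nucleolar RNAs and 2 to 7 for transfer RNA genes. Leaving out a mutant library gave the low ends for features called higher and for the exosome core. The cause was not tested. Without centring, 13 small nucleolar RNAs were lower, beside 836 of all features. Transfer RNA genes called higher numbered 14 without the filter and 1 with a mean of at least 5 RPKM, where 0 were lower. With a pseudocount of 5 the log2 change of TRF5 was 1.19, that of MPP6 0.38 and the difference between TRF5 and PAP2 1.16. Of the recomputed single values, 764 kept their side of the threshold or stayed within the replicate spread, 45 lost their call and 3 gained one. A further 18 moved more: the values just given and the shares called higher with or without a PAC core. Those shares ran from 8.5% to 37.4% with a PAC core and from 4.7% to 17.0% without one. Same-numbered libraries of the genotypes had correlations of their deviations of 0.305, -0.062 and 0.353. For scc2-4 replicates 1 and 3 these were the highest with any WT library, whereas replicate 2 correlated best with WT replicate 1, at 0.132. With 3 libraries per genotype, these values cannot decide whether the numbers pair the libraries. With the replicate block, 1270 features were higher and 1071 lower, 6 members were called higher, and 1 target mRNA was called higher, since NRD1 was not called. Among the members, depth limits the WT values of AIR1 and TRF5 most, at 53 and 52 reads in WT replicate 1. Short features at low RPKM, such as some small nucleolar RNAs and most transfer RNA genes, rest on fewer reads.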
